A study of Mus musculus with 47 samples.

Results

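A set of 10 genes that mark the blood vessel wall was followed through the striatum of mice from 6 genotype groups. All 10 were found by symbol among the 48795 genes of the count table, and all 10 passed the filter on low counts that left 19193 genes for testing. Kdr, Flt1, Tek, Pecam1 and Cldn5 mark endothelial cells, Pdgfrb and Rgs5 mark pericytes, and Tagln, Acta2 and Myh11 mark vascular smooth muscle cells. They were chosen by symbol, as markers of these cell types, with earlier results of these data known.

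The 47 libraries were made from total RNA of corpus striatum, and their titles name mRNA. The mice were 6 months old, of both sexes, on a strain labelled C57BL. Mice labelled as heterozygous Q140 knock-in, a Huntington's disease model in which the CAG repeat of 1 Htt allele is expanded, were compared with WT mice (n = 8 each). Q140 Ccdc82+/- mice were compared with Ccdc82+/- mice (n = 8 each), and Q140 Ccdc82-/- mice (n = 7) with Ccdc82-/- mice (n = 8). The Q140 Ccdc82-/- group held 3 females and 4 males, and each other group held 4 of each sex. Each library is counted as a mouse below, although the labels do not say that each is a separate animal. How the Ccdc82 allele was made, and in which cells it is lost, is not given in the sources used here.

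Library totals ran between 41.3 and 61.7 M counts, with a median of 47.7 M. Ccdc82 itself ran between 3.67 and 5.87 CPM (counts scaled to library size) in the 15 Ccdc82-/- libraries with and without Q140, and between 7.27 and 9.99 CPM in the 16 Ccdc82+/- libraries, against 10.1 to 12.9 CPM in the 16 libraries with no change in Ccdc82. These ranges did not overlap, although reads of the gene were still counted in the Ccdc82-/- libraries. Htt ran between 183 and 230 CPM over all 47 libraries, and its count does not separate the alleles. The summed striatal and neuronal markers ran between 6930 and 11760 CPM, the summed endothelial markers between 615 and 781 CPM, the pericyte markers between 154 and 189 CPM and the smooth muscle markers between 64.4 and 95.8 CPM, with no marker of these lists at 0 in every library. WT male 1 (73.7 CPM) and Ccdc82-/- male 1 (354 CPM) had summed choroid plexus markers over 60 CPM, and the other libraries ran between 23.9 and 56.7 CPM. The counts of the 10 genes called in the Q140 comparisons and the choroid plexus marker calls are given with and without these 2 libraries.

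The brain's small vessels are tubes of endothelial cells joined by tight junctions, with pericytes along capillaries and smooth muscle cells around arterioles. Endothelial cells carry the VEGF receptors Kdr and Flt1 and the angiopoietin receptor Tek, and pericytes carry Pdgfrb, the receptor for endothelial PDGF-B. Arteriolar smooth muscle builds its contractile filaments from proteins such as those of Acta2, Myh11 and Tagln. In whole tissue, fewer cells of a type and less RNA per cell cannot be told apart, and this holds for every difference below.

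Promoter sequences of 6 of the 10 genes (Kdr, Flt1, Cldn5, Tek, Rgs5 and Acta2) were matched by symbol in RefSeq (GRCm38.p6). The 4 shown here were taken because their genes stand for the receptor and contractile groups followed here. Each is the 250 bases before the transcription start, 5′ to 3′ on the gene's strand, at chr5:75978456-75978705 (minus strand) for Kdr, chr5:147726012-147726261 (minus) for Flt1, chr4:94739039-94739288 (plus) for Tek and chr19:34255374-34255623 (minus) for Acta2. Capitals mark GGAA on either strand (TTCC when it lies on the other), the core bound by ETS factors of endothelial cells, in the first 3 sequences. In the Acta2 promoter capitals mark CArG-like elements, the kind of sequence bound by serum response factor, searched as CC, then 6 bases of which at least 5 are A or T, then GG.
Kdr: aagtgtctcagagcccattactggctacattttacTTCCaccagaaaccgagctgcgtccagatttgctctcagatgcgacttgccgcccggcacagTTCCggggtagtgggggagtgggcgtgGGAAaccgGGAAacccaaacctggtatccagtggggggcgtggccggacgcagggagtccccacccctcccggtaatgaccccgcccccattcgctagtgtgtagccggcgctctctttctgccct
Flt1: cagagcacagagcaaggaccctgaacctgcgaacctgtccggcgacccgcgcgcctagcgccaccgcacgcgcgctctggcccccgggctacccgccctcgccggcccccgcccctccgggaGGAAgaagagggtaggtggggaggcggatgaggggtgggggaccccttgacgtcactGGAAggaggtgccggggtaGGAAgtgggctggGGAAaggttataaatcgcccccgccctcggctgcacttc
Tek: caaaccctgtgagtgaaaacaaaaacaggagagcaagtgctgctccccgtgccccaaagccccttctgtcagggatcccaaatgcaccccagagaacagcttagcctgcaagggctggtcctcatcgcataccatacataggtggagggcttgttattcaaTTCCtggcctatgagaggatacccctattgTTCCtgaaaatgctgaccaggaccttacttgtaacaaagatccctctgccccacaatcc
Acta2: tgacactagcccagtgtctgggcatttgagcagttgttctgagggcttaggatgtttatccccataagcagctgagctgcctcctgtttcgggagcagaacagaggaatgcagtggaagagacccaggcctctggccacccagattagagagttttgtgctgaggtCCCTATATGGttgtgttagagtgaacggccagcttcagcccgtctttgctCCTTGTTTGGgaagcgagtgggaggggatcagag

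The Kdr promoter held 4 GGAA matches, 215, 153, 126 and 118 bases before the start, and the Flt1 promoter held 4, at 128, 71, 52 and 39 bases. The Tek promoter held 2, at 89 and 59 bases, while Rgs5 held 3, Acta2 held 3 and Cldn5 held 0. GGAA occurred in 93.4% of 32851 RefSeq promoter windows of the same length, and 4 or more matches in 33.4%. The Acta2 promoter held 2 CArG-like matches, 84 and 34 bases before the start, and 1 of its 3 GGAA matches shared a base with one of them. Kdr held 1 CArG-like match, and the other 4 promoters held 0, against 8.59% of all windows with at least 1. Pecam1, Pdgfrb, Tagln and Myh11 are named without a promoter. In the GENCODE M21 annotation of the same build, Kdr lies 41.02 Mb and Flt1 112.6 Mb from Htt on chromosome 5, and Tagln 32.64 Mb from Ccdc82 on chromosome 9, while the other 7 genes lie on chromosomes without Htt or Ccdc82.

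Levels of the 10 genes were compared per gene length, as the FPKM values that the authors deposited, which are counts scaled by gene length and library total. In WT striatum, Rgs5, a regulator of G protein signalling enriched in pericytes, had the top level at 22.3 ± 1.35 FPKM (SD, n = 8), followed by Cldn5, the main claudin of brain endothelial tight junctions, at 11.7 ± 1.496 FPKM. Tagln (6.06 ± 0.946 FPKM), Flt1 (5.87 ± 0.490), Pdgfrb (5.14 ± 0.334) and Acta2 (4.47 ± 0.872) came next, and the SD ranges of neighbours in this order overlapped. Pecam1 (2.88 ± 0.142 FPKM) and Tek (2.85 ± 0.284) also had overlapping SD ranges, as did Kdr (1.55 ± 0.305) and Myh11 (1.38 ± 0.171). In Q140 striatum, Tagln stood at 3.77 ± 0.549 FPKM, next to Acta2 at 3.72 ± 1.03 and below Flt1 at 5.62 ± 0.336 (n = 8). The spread between mice of 1 group also differed between the genes. The mean within-group coefficient of variation of the scaled counts was 5.46% for Rgs5, 5.68% for Pdgfrb, 5.71% for Pecam1, 6.42% for Flt1 and 8.53% for Tek, and 12.4% for Cldn5, 13.3% for Kdr, 14.2% for Tagln, 14.9% for Myh11 and 20.4% for Acta2.

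**Figure D1:**
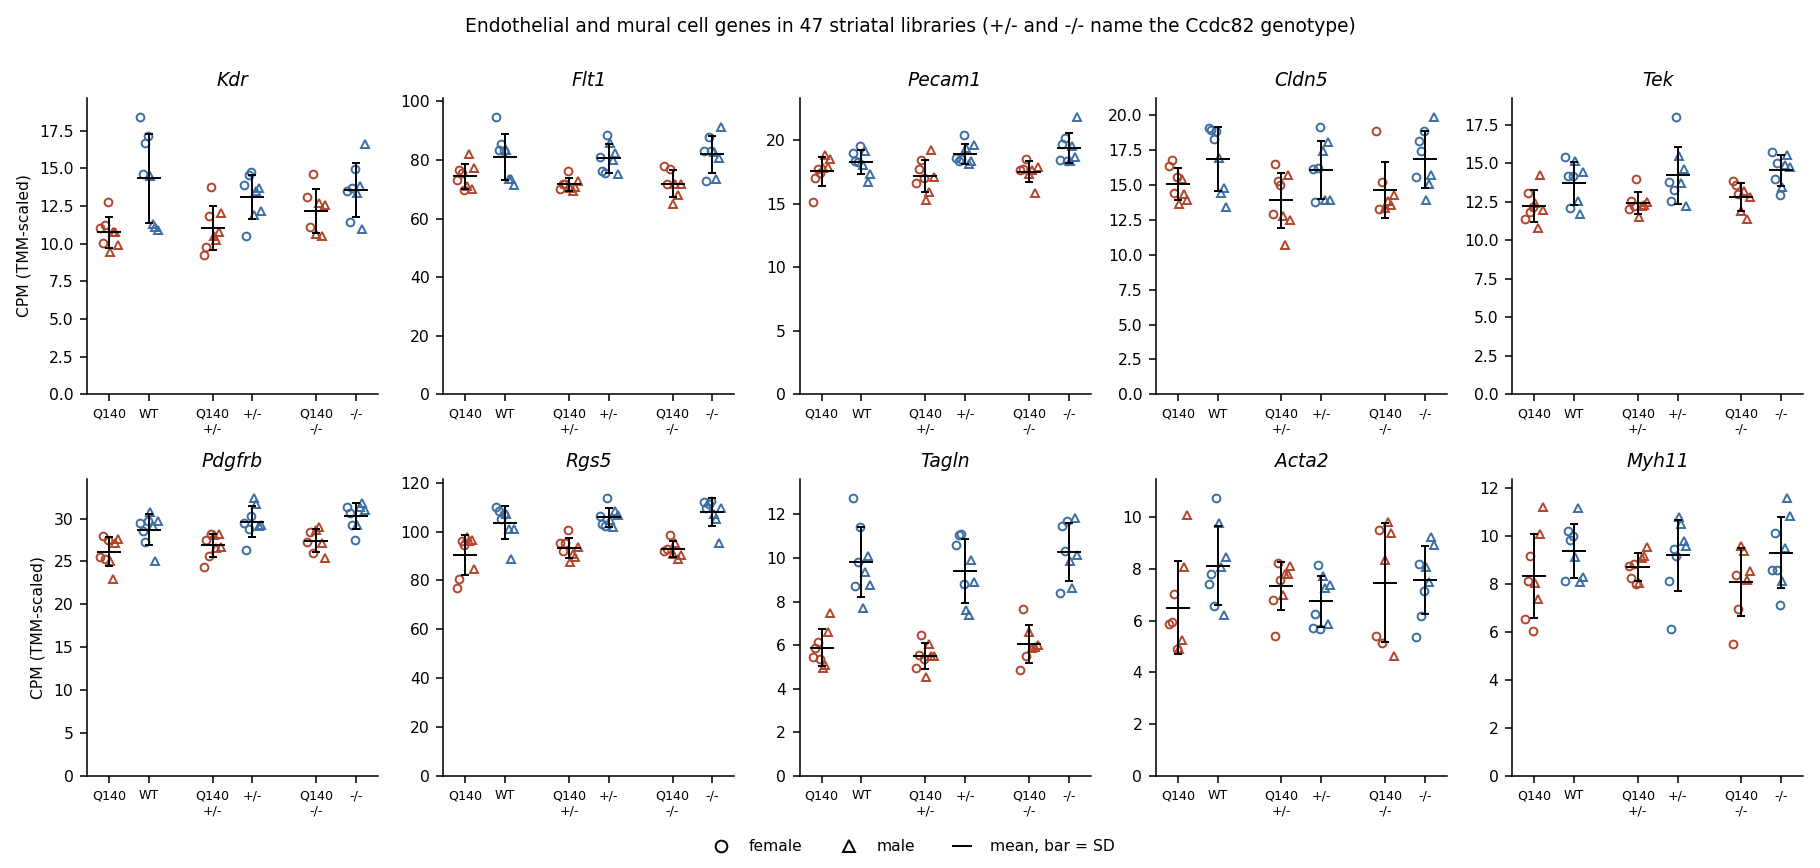
CPM of the 10 genes (y axes, TMM-scaled, each starting at 0) in the 47 libraries, by genotype group (x axes, each Q140 group left of its matched group); circles are females, triangles males, and bars the mean and SD. Tagln shows no overlap between a Q140 group and its matched group, while Acta2 and Myh11 overlap in all 3 pairs. The share of all genes without overlap was not recorded.

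The first question was how these genes differed in Q140 striatum. Averaged over the 3 Ccdc82 backgrounds, 9 of the 10 genes were lower in Q140 mice and 0 were higher, at an adjusted p under 0.05 in edgeR's quasi-likelihood test. Tagln had the largest of the 10 changes, to 0.593 times its level in the matched groups, and the other 8 called genes were at 0.830 to 0.923 times theirs. Acta2 was the gene not called. Among all 19193 genes tested, 25.5% were lower and 28.8% were higher in the same comparison. The median log2 fold change of the 10 genes was -0.17, with the median of all genes near 0.

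In the separate comparisons, 6 of the 10 genes were lower in Q140 against WT (16.5% of all genes lower, 18.2% higher), 8 in Q140 Ccdc82+/- against Ccdc82+/- (16.7% lower, 18.4% higher) and 6 in Q140 Ccdc82-/- against Ccdc82-/- (15.7% lower, 17.5% higher). None of the 10 was called higher in any of them. Median log2 fold changes of the 10 were -0.17, -0.18 and -0.18 in these 3 comparisons. These 3 comparisons share no library, but the averaged one is made of all of them. For the runs that follow, the share of all genes called was not recorded, so a change in the count cannot be set against it. In males alone 1 of the 10 (Tagln) was lower in Q140 against WT, and in females alone 5. With the well column of the plate as a factor, 3 (Flt1, Rgs5 and Tagln) were lower in Q140 Ccdc82+/-, and 8 in the average. Without the 2 libraries with high choroid plexus markers, 4 of the 10 were lower in Q140 against WT, where Flt1 (adjusted p = 0.0693) and Tek (adjusted p = 0.0920) were no longer called, 7 in Q140 Ccdc82-/- and 9 in the average.

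**Figure D2:**
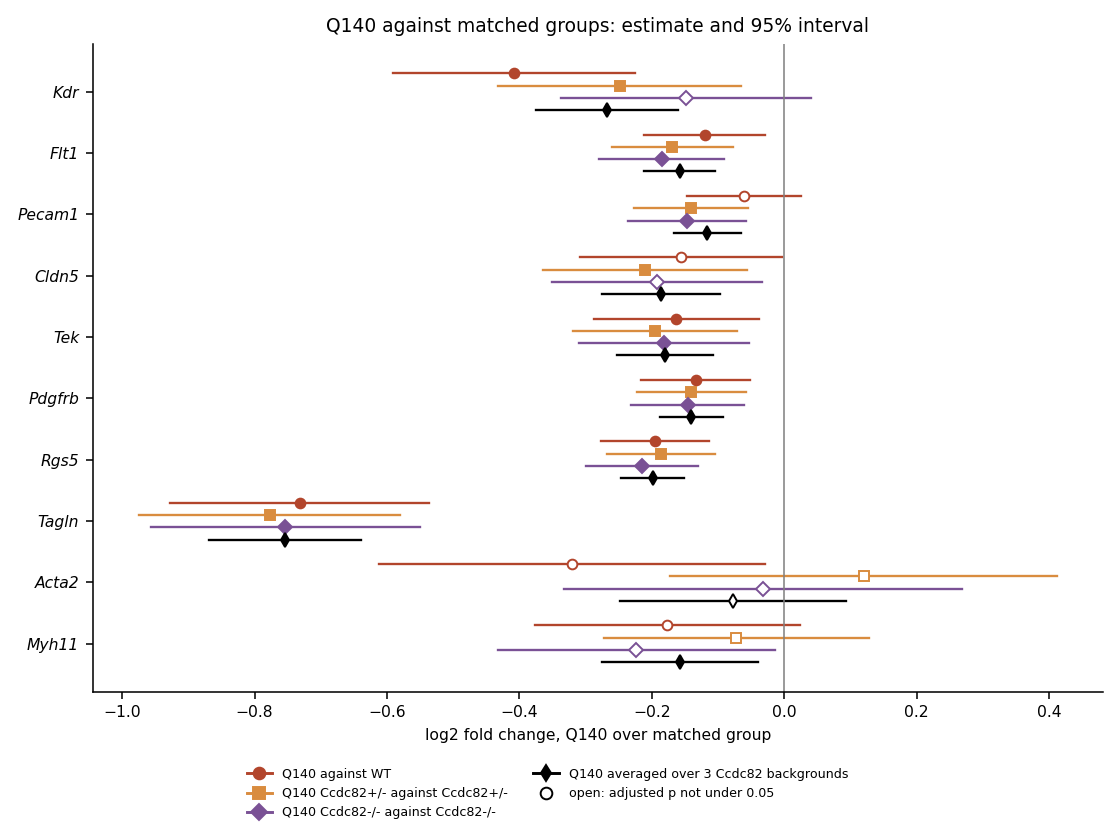
Log2 fold changes of the 10 genes (x axis, Q140 over its matched group) with 95% intervals, for the 3 Ccdc82 backgrounds and their average; filled symbols have an adjusted p under 0.05 and open symbols do not. Tagln lies between -0.78 and -0.73 in all 4, Rgs5 between -0.21 and -0.19, and Acta2 is open throughout.

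Kdr encodes VEGFR2, the main signalling receptor for VEGF-A on endothelial cells. Its CPM ran between 9.48 and 12.8 with a median of 10.8 in Q140 mice, against 10.9 to 18.4 with a median of 14.6 in WT mice. It ran between 9.23 and 13.8 (median 10.6) in Q140 Ccdc82+/- mice, against 10.5 to 14.7 (median 13.6) in Ccdc82+/- mice, and between 10.5 and 14.6 (median 12.5) in Q140 Ccdc82-/- mice, against 10.99 to 16.6 (median 13.6) in Ccdc82-/- mice. Of the 8 Q140 mice, 5 lay below the lowest WT mouse, and 5 of 8 WT mice above the highest Q140 mouse. Kdr was lower in Q140 against WT (log2 fold change -0.41, SE 0.09, adjusted p = 0.000332) and in Q140 Ccdc82+/- against Ccdc82+/- (-0.25, SE 0.09, adjusted p = 0.0286). In Q140 Ccdc82-/- against Ccdc82-/- it was not called (-0.15, 95% interval -0.34 to 0.04, adjusted p = 0.239). The difference between the first and the last of these was 0.26 (interaction, 95% interval -0.0022 to 0.52, adjusted p = 0.998), so a dependence on Ccdc82 did not pass the test.

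In WT mice, Kdr lay higher in all females than in any male. The share of all genes with such a separation was not recorded. WT females ran between 14.6 and 18.4 CPM, while WT male 1 had 14.5 CPM and the other 3 WT males 10.9 to 11.3 CPM. Q140 females ran between 10.1 and 12.8 CPM and Q140 males between 9.48 and 10.8 CPM. The sexes overlapped in every group but WT. Mean CPM in females and males was 13.4 and 12.8 in Ccdc82+/- mice, and 13.4 and 13.7 in Ccdc82-/- mice. It was 11.2 and 10.9 in Q140 Ccdc82+/- mice, and 12.9 and 11.6 in Q140 Ccdc82-/- mice. In females alone the log2 fold change of Kdr was -0.57 (adjusted p = 0.00213), and in males alone it was -0.23 (adjusted p = 0.124). WT male 1 is also a library with high choroid plexus markers, and without it and Ccdc82-/- male 1 the change of Kdr was -0.39 (adjusted p = 0.00111). By the well addresses in the labels, 4 of the 8 WT libraries and 0 of the 8 Q140 libraries stood in well column 4, and with the column as a factor the change was -0.55 (adjusted p = 2.27e-05).

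Flt1 encodes VEGFR1, which binds VEGF-A, VEGF-B and placental growth factor. It had 69.8 to 82.0 CPM (median 74.4) in Q140 mice, against 71.4 to 94.7 CPM (median 83.2) in WT mice, and 69.3 to 76.3 CPM (median 71.2) in Q140 Ccdc82+/- mice, against 75.2 to 88.4 CPM (median 80.6) in Ccdc82+/- mice. It had 64.9 to 77.8 CPM (median 71.9) in Q140 Ccdc82-/- mice, against 72.9 to 91.3 CPM (median 82.9) in Ccdc82-/- mice. The ranges overlapped in each pair, and 7 of 8 Q140 Ccdc82+/- mice lay below the lowest Ccdc82+/- mouse. Flt1 was lower in all 3 comparisons, by a log2 fold change of -0.12 in Q140 against WT (SE 0.05, adjusted p = 0.0336), -0.17 in Q140 Ccdc82+/- (SE 0.05, adjusted p = 0.00242) and -0.19 in Q140 Ccdc82-/- (SE 0.05, adjusted p = 0.00152). In males alone the first of these changes was -0.01 (adjusted p = 0.949). That call was also lost when any 1 of 8 of the 16 libraries was left out (Q140 females 1 and 4, Q140 males 1 and 3, WT females 1 to 3 and WT male 1), with an adjusted p of up to 0.118.

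Tek encodes Tie2, the receptor for the angiopoietins. It ran between 10.8 and 14.2 CPM with a median of 12.3 in the 23 mice of the 3 Q140 groups, against 11.7 to 18.0 CPM with a median of 14.2 in the 24 mice without Q140. Its log2 fold changes were -0.16, -0.20 and -0.18 in the 3 backgrounds (SE 0.06 each), all called lower, with adjusted p = 0.0347 in Q140 against WT, 0.00991 in Q140 Ccdc82+/- and 0.0227 in Q140 Ccdc82-/-. These calls were close to the threshold. The WT comparison lost it when any 1 of 9 of the 16 libraries was left out (Q140 females 1, 3 and 4, Q140 male 2, WT females 1, 2 and 4, and WT males 1 and 4; adjusted p up to 0.0903). The Ccdc82+/- comparison lost it without Ccdc82+/- female 4 (adjusted p = 0.0521), and the Ccdc82-/- comparison without Ccdc82-/- male 3 or Q140 Ccdc82-/- male 3 (adjusted p up to 0.0647).

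Pecam1, an adhesion protein of endothelial cell contacts, ran between 15.1 and 19.2 CPM (median 17.7) in the 23 mice with Q140, against 16.7 to 21.8 CPM (median 18.5) in the 24 without. It was lower in Q140 Ccdc82+/- mice (-0.14, SE 0.04, adjusted p = 0.00735) and Q140 Ccdc82-/- mice (-0.15, SE 0.04, adjusted p = 0.00764). In Q140 against WT it was not called (-0.06, 95% interval -0.15 to 0.03, adjusted p = 0.285). Cldn5 ran between 10.7 and 18.8 CPM (median 14.3) in the 23 mice with Q140, against 13.4 to 19.9 CPM (median 16.5) in the 24 without. Its log2 fold changes were -0.16 (adjusted p = 0.105) in Q140 against WT, -0.21 (adjusted p = 0.0264) in Q140 Ccdc82+/- and -0.19 (adjusted p = 0.0533) in Q140 Ccdc82-/- (SE 0.08 each), so that it passed in the middle one alone. Leaving out Ccdc82+/- female 4, Ccdc82+/- male 1, Ccdc82+/- male 3, Q140 Ccdc82+/- female 1 or Q140 Ccdc82+/- male 2 ended that call (adjusted p up to 0.0765). Leaving out Ccdc82-/- female 1, Ccdc82-/- male 1 or Q140 Ccdc82-/- female 1 made one in the Ccdc82-/- background (adjusted p down to 0.0135). For Kdr, the call in Q140 Ccdc82+/- mice was lost without Ccdc82+/- female 4, male 2 or male 3, or without Q140 Ccdc82+/- female 1 or 2 (adjusted p up to 0.0780).

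The pericyte genes differed by little but with little spread. Pdgfrb had 23.0 to 28.0 CPM (median 26.4) in Q140 mice, against 25.0 to 30.8 CPM (median 29.3) in WT mice. It was lower in all 3 backgrounds, by -0.13 (SE 0.04, adjusted p = 0.00799) against WT, -0.14 (SE 0.04, adjusted p = 0.00515) in Q140 Ccdc82+/- and -0.15 (SE 0.04, adjusted p = 0.00539) in Q140 Ccdc82-/-. Of the 24 mice without Q140, 18 lay above the highest of the 23 mice with Q140.

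Rgs5 had 77.1 to 97.8 CPM (median 95.3) in Q140 mice, against 88.9 to 109.9 CPM (median 106.1) in WT mice. It had 87.7 to 100.8 CPM (median 93.0) in Q140 Ccdc82+/- mice, against 102.0 to 113.6 CPM (median 105.6) in Ccdc82+/- mice, and 88.9 to 98.7 CPM (median 92.1) in Q140 Ccdc82-/- mice, against 95.2 to 112.7 CPM (median 109.6) in Ccdc82-/- mice. The Ccdc82+/- pair did not overlap, and in the other pairs 7 of 8 mice without Q140 lay above the highest mouse with it. How many of all genes show no overlap in a pair was not recorded. The log2 fold changes were -0.20 (SE 0.04, adjusted p = 0.000110) against WT, -0.19 (SE 0.04, adjusted p = 0.000199) in Q140 Ccdc82+/- and -0.21 (SE 0.04, adjusted p = 4.89e-05) in Q140 Ccdc82-/-. In males alone the change of Rgs5 against WT was -0.09 (adjusted p = 0.241). Pdgfrb against WT was not called in females alone (-0.11, adjusted p = 0.151) or in males alone (-0.16, adjusted p = 0.0699). No single library left out ended a call of Rgs5, Pdgfrb or Tagln in these 3 comparisons.

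Tagln encodes transgelin (SM22), an actin-binding protein abundant in differentiated smooth muscle. It had 4.93 to 7.46 CPM (median 5.66) in Q140 mice, against 7.70 to 12.7 CPM (median 9.59) in WT mice. It had 4.53 to 6.48 CPM (median 5.49) in Q140 Ccdc82+/- mice, against 7.39 to 11.1 CPM (median 9.40) in Ccdc82+/- mice, and 4.88 to 7.64 CPM (median 5.92) in Q140 Ccdc82-/- mice, against 8.38 to 11.8 CPM (median 10.2) in Ccdc82-/- mice. In each pair, every Q140 mouse lay below every mouse of its matched group. The share of all genes without overlap in these pairs was not recorded, so this cannot be set against it. The log2 fold changes were -0.73 (SE 0.10, adjusted p = 3.3e-08) against WT, -0.78 (SE 0.10, adjusted p = 8.72e-09) in Q140 Ccdc82+/- and -0.75 (SE 0.10, adjusted p = 4.17e-08) in Q140 Ccdc82-/-. Counts behind these values were 222 to 635 per library. In females alone the averaged change was -0.87 and in males alone -0.65, and the difference between the sexes was -0.22 (95% interval -0.44 to 0.01, adjusted p = 0.99997).

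Tagln lies on chromosome 9 at 45929619 to 45936058 (GRCm38, minus strand), and its exons share bases with 2 genes on the other strand in the GENCODE M21 annotation. The overlap is 108 of its 1988 exon bases with Pcsk7, a proprotein convertase, and 1241 with the antisense gene Gm48529, which was not analysed here. The libraries were stranded, but the strand setting of the counting is not given in the sources used here, and without it reads of Tagln and of these genes cannot be told apart. Pcsk7 itself was not called in any of these comparisons, with a log2 fold change of 0.01 averaged over the backgrounds (SE 0.02, adjusted p = 0.791). None of the other 9 genes overlapped another gene. Of 50-base stretches of the transcripts, 48.3% in Tagln (747 of 1546) also occurred in those of Pcsk7 or Gm48529 when both strands were searched, 0.352% in Acta2 and 0.4% in Myh11 occurred in transcripts of other genes, and 0 in the 7 endothelial and pericyte genes.

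Acta2 and Myh11, which encode smooth muscle actin and myosin heavy chain, did not follow Tagln. Acta2 had 4.89 to 10.1 CPM (median 5.91) in Q140 mice, against 6.1997 to 10.7 CPM (median 7.93) in WT mice. It had 5.41 to 8.23 CPM (median 7.67) in Q140 Ccdc82+/- mice, against 5.65 to 8.14 CPM (median 6.74) in Ccdc82+/- mice, and 4.63 to 9.80 CPM (median 8.35) in Q140 Ccdc82-/- mice, against 5.38 to 9.24 CPM (median 7.78) in Ccdc82-/- mice. All 3 pairs overlapped, and the log2 fold changes were -0.32 (95% interval -0.61 to -0.03, adjusted p = 0.0804), 0.12 (-0.17 to 0.41, adjusted p = 0.574) and -0.03 (-0.33 to 0.27, adjusted p = 0.901). Without Q140 male 4, at 10.1 CPM the highest of its group, or without WT male 3, Acta2 passed in Q140 against WT (adjusted p down to 0.0166). Myh11 ran between 5.49 and 11.2 CPM (median 8.39) in the 23 mice with Q140, against 6.13 to 11.6 CPM (median 9.50) in the 24 without. It was not called in any single background (-0.18, -0.07 and -0.22, SE 0.10 each, adjusted p between 0.0927 and 0.622), and was lower in the average of all 3 (-0.16, SE 0.06, adjusted p = 0.0193).

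Within a library, the log2 ratio of Tagln to Acta2 was -0.12 ± 0.18 in Q140 mice and 0.28 ± 0.38 in WT mice (SD, n = 8 each). It was -0.42 ± 0.20 in Q140 Ccdc82+/- mice and 0.48 ± 0.36 in Ccdc82+/- mice (n = 8 each), and -0.25 ± 0.40 in Q140 Ccdc82-/- mice (n = 7) and 0.45 ± 0.23 in Ccdc82-/- mice (n = 8). Against Myh11, Tagln stood at -0.49 ± 0.18 in Q140 mice and 0.06 ± 0.32 in WT mice. The ratio of Acta2 to Myh11 was -0.37 ± 0.18 in Q140 mice and -0.22 ± 0.27 in WT mice, a difference smaller than the SD of the WT mice. In the other pairs it lay the other way, at -0.26 ± 0.17 in Q140 Ccdc82+/- mice and -0.44 ± 0.25 in Ccdc82+/- mice, and at -0.16 ± 0.39 in Q140 Ccdc82-/- mice and -0.30 ± 0.22 in Ccdc82-/- mice. These ratios describe an unequal change among the 3 genes and were not tested, and they do not depend on how the libraries are scaled.

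**Figure D3:**
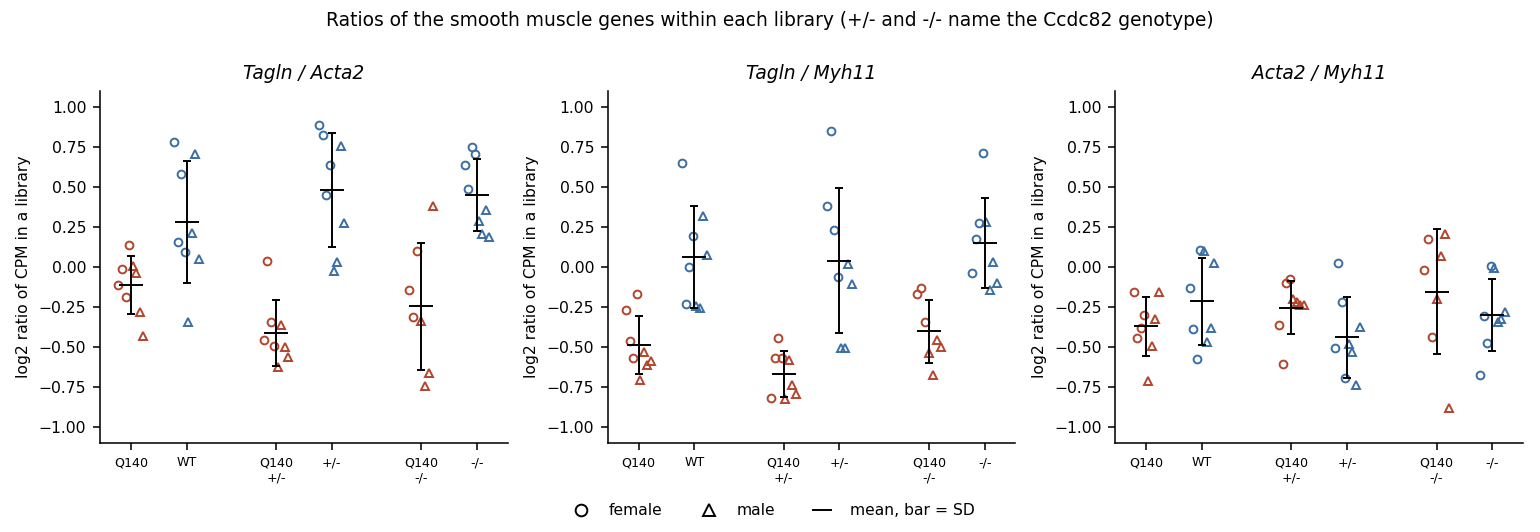
Log2 ratios of CPM between pairs of smooth muscle genes in each library (y axes), by genotype group (x axes, each Q140 group left of its matched group); circles are females, triangles males, and bars the mean and SD. Both ratios with Tagln on top have lower means in each Q140 group, and the Acta2 to Myh11 ratios of the groups overlap.

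An analysis of the FPKM values differed from that of the counts in scaling, test, filter and pseudocount at once. With RLE size factors in place of TMM and all else the same, 6, 8 and 7 of the 10 genes were lower in the 3 backgrounds and 9 in the average. On the FPKM scale, which divides by library totals, the median log2 fold change of all genes was 0.06 in the averaged Q140 comparison, and 8744 genes were called higher and 2957 lower, against 5527 higher and 4892 lower in the counts. In limma on log2(FPKM + 0.1), which understates the change of low genes, 7 of the 10 genes were lower in the average, and Pecam1 (adjusted p = 0.0704) and Myh11 (adjusted p = 0.189) were no longer called. On this scale 3 were lower in Q140 against WT (Kdr, Rgs5 and Tagln), 2 in Q140 Ccdc82+/- (Rgs5 and Tagln) and 3 in Q140 Ccdc82-/- (Flt1, Rgs5 and Tagln), beside 2121, 1914 and 1818 lower among the 21309 genes tested on it. Rgs5 and Tagln were the genes called lower in every background on both scales.

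Other genes of the vessel wall were read from lists of markers that leave out the 10. These lists, too, were chosen with earlier results of these data known. In the averaged Q140 comparison, 20 of 28 endothelial markers were lower and 0 higher (median -0.13), and 9 of 14 pericyte markers were lower and 0 higher (median -0.09), beside 25.5% lower among all genes. Endothelial genes with the smallest p were Esam, an adhesion protein of tight junctions (-0.23, SE 0.03), Eng, a TGF-beta co-receptor (-0.23, SE 0.04), Slco1c1, a thyroxine transporter of the blood-brain barrier (-0.17, SE 0.02), and Ptprb, the phosphatase that acts on Tie2 (-0.17, SE 0.03). Pericyte genes were Abcc9, a subunit of potassium channels (-0.17, SE 0.03), Notch3 (-0.11, SE 0.03), and the transcription factors Zic1 (-0.11, SE 0.03) and Foxc1 (-0.19, SE 0.06).

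Of 12 smooth muscle markers tested, 5 were lower and 1 was higher (median -0.12), beside 25.5% lower and 28.8% higher among all genes. Tpm2, a tropomyosin, was lower by -0.74 (SE 0.05, adjusted p = 3.73e-18) in the average and by -0.75, -0.71 and -0.77 in the 3 backgrounds. Synpo2, an actin-binding protein of striated and smooth muscle, was lower by -0.34 (SE 0.03), and Myl9, the regulatory myosin light chain, by -0.12 (SE 0.04). Cnn1, calponin, was the one that was higher (0.60, SE 0.21, adjusted p = 0.0151), and among single backgrounds it passed in Q140 Ccdc82+/- alone (1.02, SE 0.39, adjusted p = 0.0376).

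Of 25 vascular ligands and receptors tested, 15 were lower and 2 higher (median -0.13), beside 25.5% lower and 28.8% higher among all genes. Eng and Tie1 stand in this list and in the endothelial list, and Pdgfra stands in this list and in the oligodendrocyte list, so the counts of these lists share genes. Jag1, a Notch ligand, was lower by -0.87 (SE 0.06, adjusted p = 1.82e-15) and Acvrl1, the endothelial TGF-beta family receptor ALK1, by -0.72 (SE 0.03, adjusted p = 2.26e-22). Of the ligands of the 4 receptors above, chosen for that role, Vegfa, which binds Kdr and Flt1, was lower (-0.28, SE 0.04, adjusted p = 1.32e-07), Pgf, which binds Flt1, was higher (0.27, SE 0.09, adjusted p = 0.00602), and Vegfb was not called (0.00, 95% interval -0.04 to 0.04). The Tek ligand Angpt2 was lower (-0.26, SE 0.10, adjusted p = 0.0274) and Angpt1 was not called (0.31, 95% interval 0.01 to 0.60, adjusted p = 0.0698). The Pdgfrb ligand Pdgfb was not called (-0.03, 95% interval -0.10 to 0.04), Pdgfd was lower (-0.13, SE 0.05, adjusted p = 0.0324), and Pdgfc, which binds PDGF receptors as well, was higher (0.28, SE 0.04).

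Markers of other cells were read in the same averaged comparison, where 25.5% of all genes were lower and 28.8% higher. Some of these lists had calls and others had none, and their part in the results on the 10 genes was not tested. Of 10 striatal and neuronal markers, 9 were lower and 1 higher (median -0.59), and their summed level ran between 6930 and 8110 CPM in the 23 mice with Q140, against 10284 to 11760 CPM in the 24 without. Most of these are genes of striatal neurons (Ppp1r1b, Penk, Drd1, Drd2, Adora2a, Tac1 and Pde10a), beside Rbfox3, Snap25 and Syt1. The list therefore does not describe neurons in general. The genes of this list with the smallest p were all of striatal neurons. Penk was lower by -1.09 (SE 0.02), Pde10a by -0.80 (SE 0.03), Ppp1r1b by -0.63 (SE 0.02) and Drd1 by -0.59 (SE 0.02). Of 9 microglial and macrophage markers, 6 were lower and 0 higher (median -0.12; summed level 310.4 to 361 CPM in mice with Q140, against 345 to 395 CPM without), with Cx3cr1, P2ry12 and Csf1r between -0.15 and -0.12. Of 7 oligodendrocyte markers, 4 were lower (summed level 4957 to 6874 CPM with Q140, against 5316 to 7380 CPM without; Mobp -0.22, Aspa -0.19 and Mbp -0.13). Of 7 astrocyte markers, 3 were lower (summed level 3275 to 3722 CPM with Q140, against 3595 to 4168 CPM without; Slc1a2 -0.21, Aqp4 -0.14 and Slc1a3 -0.09) and S100b was higher (0.12). Of 12 fibroblast and leptomeningeal markers, 4 were lower and 0 higher (summed level 40.4 to 50.3 CPM with Q140, against 42.6 to 65.5 CPM without; Igf2 -0.25, Aldh1a2 -0.20, Fbln1 -0.17 and Dcn -0.16). Of 8 choroid plexus markers, 2 were called lower (Ttr -1.45 and F5 -0.49) and Clic6 higher (0.26), while Slc4a5 was not called (-0.82, adjusted p = 0.0506), and the summed level was 26.4 to 56.7 CPM with Q140, against 23.9 to 354 CPM without. Both lower calls were lost without the 2 libraries with high choroid plexus markers. These were picked by the same markers and both lack Q140, so leaving them out lowers the level without Q140 by construction. The values without them therefore describe the remaining libraries and cannot test these markers. Without WT male 1 and Ccdc82-/- male 1, 0 of the 8 were lower in the average or in any background, and the values were -0.44 for Ttr (adjusted p = 0.272) and -0.14 for F5 (adjusted p = 0.244), while Clic6 (0.29) and Kl (0.21, adjusted p = 0.0234) were higher. None of 7 ependymal markers (Ak7, Mia, Rsph1 and Tmem212 among them, adjusted p between 0.376 and 0.662) and none of 5 blood markers (Alas2, Hba-a1, Hba-a2 and Hbb-bt among them, adjusted p between 0.659 and 0.882) was called. Their summed levels were 9.12 to 50.6 CPM with Q140 and 9.57 to 49.2 CPM without for the ependymal list, and 0.0448 to 31.2 CPM with Q140 and 0.0638 to 33.8 CPM without for the blood list.

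**Figure D4:**
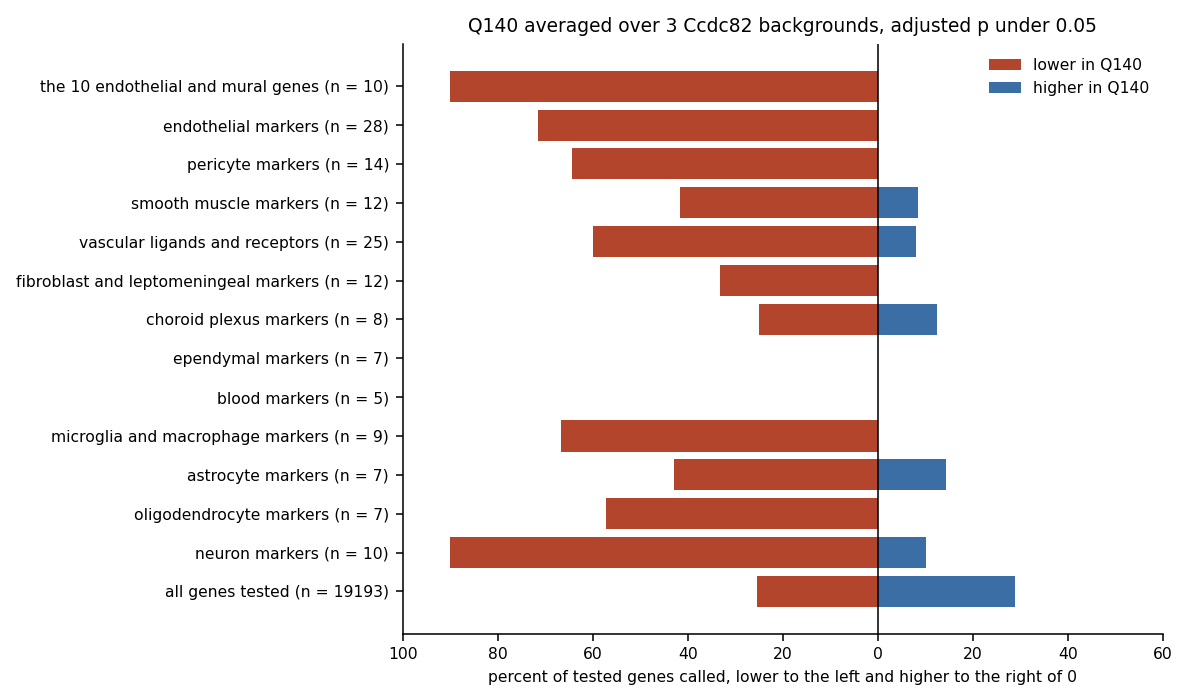
Percent of tested genes called lower (left of 0) or higher (right of 0) in Q140 averaged over 3 Ccdc82 backgrounds (x axis), for the 10 genes, each marker list and all genes tested (y axis, with the number tested). The 10 genes and the striatal and neuronal markers each have 9 of 10 lower, and all genes tested have 25.5% lower and 28.8% higher.

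The second question was whether the loss of Ccdc82 alters these genes. None of the 10 was called in Ccdc82+/- against WT, Ccdc82-/- against WT, Q140 Ccdc82+/- against Q140 or Q140 Ccdc82-/- against Q140, and none had an unadjusted p under 0.05. In each of these comparisons 1 of the 19193 genes was called (0.00521%), and the count by voom and by DESeq2 was 0 of the 10 as well. The first pair shares the WT libraries and the second pair the Q140 libraries. Median log2 fold changes of the 10 genes were -0.02, 0.04, 0.03 and 0.04.

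The intervals show what these comparisons could see. For Tagln the log2 fold change was -0.06 (95% interval -0.25 to 0.13) in Ccdc82+/- and 0.07 (-0.12 to 0.26) in Ccdc82-/- against WT, and with Q140 as the base -0.11 (-0.31 to 0.10) for Q140 Ccdc82+/- and 0.05 (-0.16 to 0.25) for Q140 Ccdc82-/-. For Rgs5 it was 0.03 (-0.05 to 0.11) and 0.06 (-0.02 to 0.14) against WT, and 0.04 (-0.04 to 0.12) and 0.04 (-0.04 to 0.12) against Q140. Kdr had the lowest unadjusted p of the 10 in these 4 comparisons, in Q140 Ccdc82-/- against Q140, at 0.19 (-0.00067 to 0.38, adjusted p = 0.9997). Acta2 had the widest intervals, with -0.27 (-0.56 to 0.02) in Ccdc82+/- against WT.

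**Figure D5:**
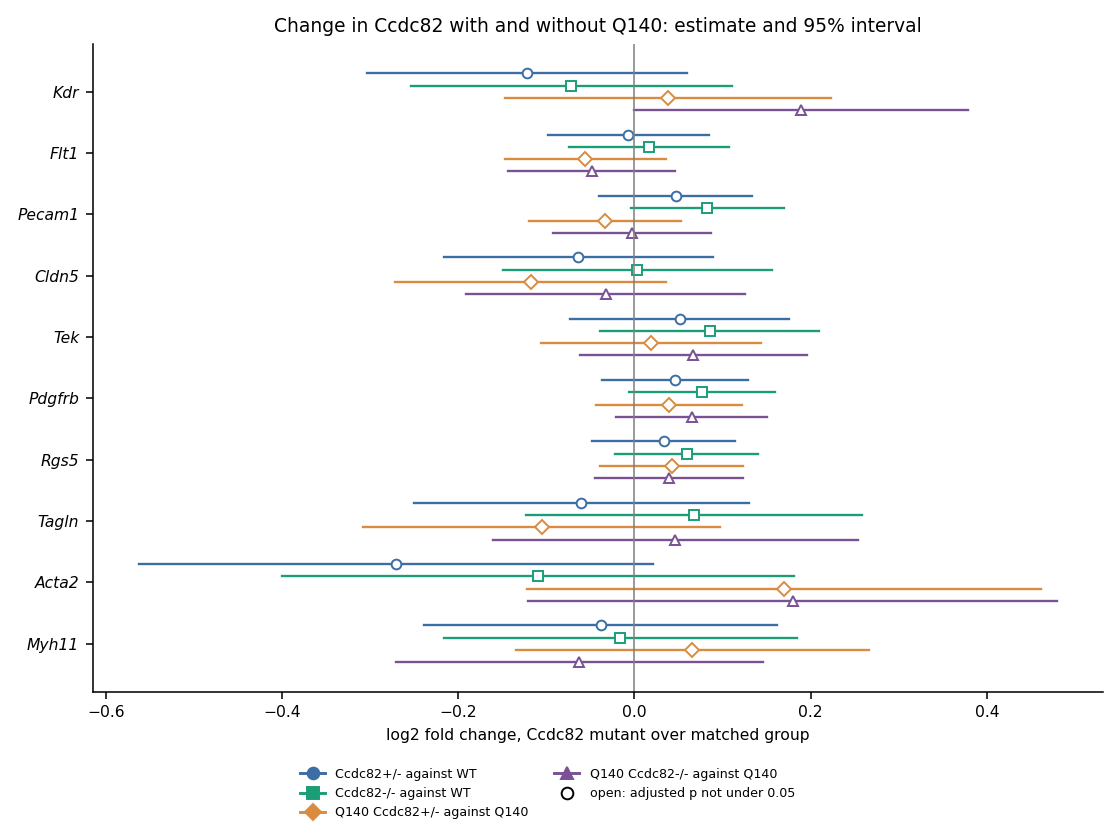
Log2 fold changes of the 10 genes (x axis, Ccdc82 mutant over its matched group) with 95% intervals, for Ccdc82+/- and Ccdc82-/- in mice without and with Q140; open symbols have an adjusted p not under 0.05. Every symbol is open.

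Interaction terms asked whether the Q140 difference itself varied with Ccdc82. None of the 10 was called for Ccdc82+/- or for Ccdc82-/-, as for all genes tested (0% called in each). Of the 10, Acta2 alone had an unadjusted p under 0.05, for Ccdc82+/-, where its Q140 difference was 0.44 higher on the log2 scale than in the WT background (95% interval 0.03 to 0.85, adjusted p = 0.914). For Tagln the interaction terms were -0.05 (95% interval -0.32 to 0.23) and -0.02 (-0.30 to 0.26), and for Rgs5 0.01 (-0.11 to 0.12) and -0.02 (-0.14 to 0.10).

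Sex was fitted as well. Averaged over the 6 genotypes, Cldn5 was higher in females by 0.17 (SE 0.04, adjusted p = 0.0139) and Myh11 was lower in females by -0.20 (SE 0.06, adjusted p = 0.0231), beside 4.71% higher and 3.97% lower among 19714 genes. WT females had 18.3 to 19.0 CPM of Cldn5, against 13.4 to 16.9 CPM in WT males, with no overlap, while Q140 females had 14.4 to 16.8 CPM, against 13.7 to 15.4 CPM in Q140 males. How many of all genes separate the sexes of a group in this way was not recorded. For Myh11, Q140 Ccdc82-/- females had 5.49 to 8.39 CPM, against 8.16 to 9.60 CPM in Q140 Ccdc82-/- males, and Ccdc82+/- females had 6.13 to 9.48 CPM, against 9.60 to 10.8 CPM in Ccdc82+/- males. In WT mice the mean was not lower in females, which had 8.13 to 10.2 CPM (mean 9.54), against 8.10 to 11.2 CPM (mean 9.18) in males. Kdr was not called (0.14, SE 0.05, adjusted p = 0.0638), and neither was Acta2 (-0.19, SE 0.09, adjusted p = 0.182). Of the 28 endothelial markers, 9 were higher in females and 1 lower. The Q140 difference did not pass a test for variation by sex in any of the 10 genes, nor in any gene tested (0%).

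Beyond the genotype and sex means, the 10 genes varied together in part. Across the 47 libraries, after the mean of each genotype and sex was taken out, the pairs most alike were Tek with Pdgfrb (Pearson r 0.668, Spearman rho 0.637), Kdr with Flt1 (0.540, 0.514), Kdr with Rgs5 (0.534, 0.570), Acta2 with Myh11 (0.527, 0.565) and Flt1 with Cldn5 (0.511, 0.535). For Tagln the values were 0.473 and 0.453 with Acta2, and the lowest of all pairs was Tagln with Rgs5 (-0.263, -0.207). Genes read from the same library share its depth and tissue makeup, and both differed between libraries. These values carry no test.

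Among 13883 other genes, those most like Kdr in these libraries were Ets1 (r 0.743, rho 0.700), Nr3c1 (0.727, 0.715), Ddit3 (0.686, 0.692), Kif5c (0.656, 0.672) and Erbb3 (0.653, 0.614). Those most like Rgs5 were Col11a2 (0.742, 0.668), Aspa (0.730, 0.655), Sema3c (0.721, 0.549), Gm42756 (0.707, 0.582) and Rasgrp3 (0.706, 0.572). Those most like Tagln were Gm6104 (0.618, 0.641), Psmc2 (0.585, 0.597), Gm6733 (0.547, 0.597), Myl9 (0.543, 0.528) and Ddah1 (0.541, 0.547). Myl9 is the one of these 15 that stands in the smooth muscle list, and Aspa stands in the oligodendrocyte list.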

How the data were processed

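RNA of 47 mouse striata was read from 1 table of counts and 1 of FPKM over 48795 genes. The count per gene is the authors' deposited value, from STAR 2.7.5c, SAMtools 1.10 and HTSeq 0.12.3 on GRCm38 per the submitters' processing notes. Settings, strand option and annotation are not given in the sources used here. The FPKM values are the authors' deposited counts divided by library total and 1 length per gene (largest relative deviation 8.2e-15). Every column was mapped to a sample (0 without one), and groups come from the labels.

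Counts were filtered (filterByExpr), scaled by TMM and tested with edgeR 4.0.16 (R 4.3.3, quasi-likelihood, two-sided) over all 47 libraries with terms for 6 groups and sex, and with 12 genotype and sex groups for the comparisons of sex. P-values were adjusted by Benjamini-Hochberg over all genes tested, at 0.05. Intervals use 40 or 35 residual degrees of freedom and cover the spread between these samples. The labels give replicate numbers and do not say that each library is a separate animal, so this spread may be partly technical. CPM is the count over the TMM-scaled total. Alternatives used DESeq2 1.42.0 and limma 3.58.1 (FPKM of at least 0.1 in 7 libraries, pseudocounts 0.1 and 1). The model with 6 groups was also run on simulated counts, drawn with the fitted spread and with changes added to a small part of the genes. That setting is unlike these data, where many genes were called, so no support is drawn from it.

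The 10 genes and all lists were chosen with earlier results of these data known. Beside the 10, up to 4 genes per list with the smallest p in the averaged Q140 comparison are named (some are not reported here), the ligands by role, and the 5 genes most alike to Kdr, Rgs5 and Tagln by Pearson correlation (mean log2 CPM of at least 1).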

Additional observations from a re-analysis of the deposited data

Results flagged for a closer look

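In 60 groups of values (10 genes in 6 genotype groups), 4 libraries stood apart from the rest of their group by Dixon's gap test at the 95% level, where chance gives about 1 in 20 groups. Cldn5 had 18.85 CPM in Q140 Ccdc82-/- female 1, and the other 6 mice of the group ran between 13.26 and 15.23 CPM. Tek had 13.96 CPM in Q140 Ccdc82+/- female 4, and the others ran between 11.54 and 12.56 CPM. Rgs5 had 88.85 CPM in WT male 3, with the others between 100.9 and 109.9 CPM, and 95.16 CPM in Ccdc82-/- male 3, with the others between 105 and 112.7 CPM. Without Q140 Ccdc82-/- female 1, Cldn5 passed the test in Q140 Ccdc82-/- against Ccdc82-/- (adjusted p = 0.0135).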

How the results depend on the processing

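In the Q140 comparisons and the comparison of sex, no fold change of the 10 genes reversed a call under any alternative run. Of the alternative values there, 551 stayed on their side of the threshold, 75 dropped out of it and 14 came into it. For runs with 1 library left out, this tally holds only the lowest and the highest fold change of each gene. It therefore leaves out many of the lost calls given above, such as those of Flt1 and Tek against WT. The number of genes lower in Q140 against WT (6) was 1 in males only and 3 on the FPKM scale with either pseudocount. In Q140 Ccdc82+/- (8) it was 3 with the plate column as a factor, 2 in females only, 3 in males only and 2 on the FPKM scale with either pseudocount, and between 5 (without Ccdc82+/- female 4) and 8 with 1 library left out. In Q140 Ccdc82-/- (6) it was 2 in females only and 3 on the FPKM scale with either pseudocount. The number that differed by sex (2) was 5 with voom. The cause was not tested, although the analyses of 1 sex hold fewer samples. Apart from the FPKM scale, the share of all genes called was not recorded for the alternative runs, so these counts cannot be set against it. With 1 library left out, the number was between 4 and 7 in Q140 against WT, between 5 and 7 in Q140 Ccdc82-/-, and 9 in the average. The average had 7 to 9 genes lower under every alternative run; Myh11 dropped out with the plate column (adjusted p = 0.0752), in females only (0.0605) and in males only (0.189). Leaving out the libraries with high choroid plexus markers, for the 10 genes and for those markers, was chosen after seeing the data. With the replicate block, 6, 8, 6 and 9 genes were lower in the 3 backgrounds and the average, and 0 were called in the Ccdc82 comparisons and interactions, as without it, while the comparisons of sex were not run with it. Same-numbered libraries did not deviate together in Q140 against WT (correlations of -0.42 to 0.09 over 8 pairs). Pairs over 0.1 numbered 0 of 8 in Q140 Ccdc82+/- against Q140, 1 of 8 in Ccdc82+/- against WT and 2 of 8 in Q140 Ccdc82+/- against Ccdc82+/-. They numbered 3 of 7 in Q140 Ccdc82-/- against Ccdc82-/- (up to 0.55), 4 of 7 in Q140 Ccdc82-/- against Q140 (up to 0.32) and 4 of 8 in Ccdc82-/- against WT (up to 0.38). The smooth muscle genes reached the lowest counts of the 10, with 221 to 631 per library for Acta2, 222 to 635 for Tagln and 250 to 703 for Myh11. Whether depth adds to their spread was not tested.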
